A study of Homo sapiens with 48 samples.

Results

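The 35 genes described here encode the chaperones, folding enzymes, stress sensors, degradation factors and translocon subunits of the endoplasmic reticulum (ER). They were taken as a list of symbols from a deposited expression table of 19102 genes. All 35 were found there, 33 under the listed symbol and 2 through a RefSeq synonym (ERO1LB as ERO1B and SELS as VIMP). The level of each gene was measured by sequencing polyadenylated RNA from A382, an established human glioblastoma line grown in serum. The study either knocked out members of the EP400/TIP60 complex, which acetylates histones and exchanges histone variants, or switched on p53, and asked how the p53 network responded.

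The knockout libraries came from A382 cells infected with lentivirus carrying a guide RNA and were collected at day 9. BRD8, a bromodomain subunit, and H2AZ, the histone variant that the complex exchanges, had 4 libraries each, from 2 guides with 2 replicates. RUVBL1, RUVBL2, MORF4L1, MORF4L2, TIP60, TRRAP, EP400, GAS41, ACTL6A, ING3, DMAP1, MRGBP, VPS72 and MEAF6 had 2 libraries each, 1 per guide. Their controls were 4 non-targeting guides, sgNeg1 to sgNeg4, with 2 libraries each. In the remaining 4 libraries, A382 cells received doxycycline for 2 days, and 2 of them carried doxycycline-inducible p53 while 2 carried a control vector. Nothing in the labels says that replicates were separate cultures, so p-values speak only of the spread among the libraries at hand, and that spread may be technical.

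Proteins that enter the ER fold with the help of BiP, the HSP70 chaperone encoded by HSPA5, and of GRP94, the HSP90 chaperone encoded by HSP90B1. When unfolded protein accumulates, the sensors ATF6, IRE1 (ERN1) and PERK (EIF2AK3) are released from BiP. ATF6 and the IRE1-spliced form of XBP1 then switch on chaperone and ER-associated degradation (ERAD) genes, and PERK slows translation and raises ATF4 and CHOP.

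ATF6 and XBP1 are known to bind ER stress elements, and promoters are shown for BiP, GRP94 and XBP1, the genes that the results below return to most. RefSeq promoter windows of GRCh38.p14, from 250 bases before to 50 bases after a gene's start, were available for 32 of the 35 genes and not used here for PDIA3, DERL1 and DERL3. The ERSE (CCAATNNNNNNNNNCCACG, either strand) occurred in 0.0769% of all 35116 windows. By gene, it was in 0.0916% of the 27305 genes with a window and in 8 of the 32 genes. Only the bases before the start are printed, in the direction of the gene, with the 2 fixed ends of each ERSE in capitals. The HSPA5 window is chr9:125241344-125241593 on the minus strand, that of HSP90B1 is chr12:103930160-103930409 on the plus strand, and that of XBP1 is chr22:28800570-28800819 on the minus strand.
HSPA5: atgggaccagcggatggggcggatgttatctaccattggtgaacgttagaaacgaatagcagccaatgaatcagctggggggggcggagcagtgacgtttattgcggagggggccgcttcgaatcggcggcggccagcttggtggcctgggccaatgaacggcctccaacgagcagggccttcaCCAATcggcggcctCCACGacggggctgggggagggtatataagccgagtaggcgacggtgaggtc
HSP90B1: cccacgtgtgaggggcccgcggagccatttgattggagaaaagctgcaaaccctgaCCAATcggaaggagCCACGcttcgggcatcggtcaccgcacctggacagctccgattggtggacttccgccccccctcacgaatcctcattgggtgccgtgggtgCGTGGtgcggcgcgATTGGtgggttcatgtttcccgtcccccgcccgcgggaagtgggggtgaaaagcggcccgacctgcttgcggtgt
XBP1: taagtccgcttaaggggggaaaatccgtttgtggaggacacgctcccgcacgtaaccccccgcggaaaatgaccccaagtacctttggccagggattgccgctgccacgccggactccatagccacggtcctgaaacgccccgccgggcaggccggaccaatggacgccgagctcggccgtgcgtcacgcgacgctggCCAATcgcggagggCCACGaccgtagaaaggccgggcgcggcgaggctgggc
HSP90B1 carried 2 exact matches, on opposite strands, while HSPA5 and XBP1 carried 1 each.

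The other ERSE matches are given with up to 10 flanking bases, because their genes went different ways in the comparisons below. They lie at chr19:12938374-12938412 for CALR (plus strand), chr5:179698768-179698806 for CANX (plus), chr2:10812843-10812881 for PDIA6 (minus), chr22:49918544-49918582 for CRELD2 (plus) and chr1:236282173-236282208 for ERO1B (minus).
CALR: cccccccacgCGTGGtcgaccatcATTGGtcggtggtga
CANX: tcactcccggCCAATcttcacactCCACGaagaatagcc
PDIA6: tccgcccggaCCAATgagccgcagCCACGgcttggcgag
CRELD2: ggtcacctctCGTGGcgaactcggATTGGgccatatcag
ERO1B: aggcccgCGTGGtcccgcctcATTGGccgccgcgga
ERSE-II (ATTGGNCCACG, either strand) occurred in 0.0541% of all windows, in 0.0696% of all genes with a window and in 3 of the 32 genes. Its ends are in capitals in the matches of HERPUD1 (chr16:56932015-56932045, plus), SDF2L1 (chr22:21642104-21642134, plus) and HYOU1 (chr11:119057264-119057294, minus, the nearer to the start of 2).
HERPUD1: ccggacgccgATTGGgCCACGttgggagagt
SDF2L1: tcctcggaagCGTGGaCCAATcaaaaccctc
HYOU1: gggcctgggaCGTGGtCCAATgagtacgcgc
The UPRE core TGACGTGG was in 0.729% of windows and in 0.927% of all genes with a window. It was in 2 of the 32 genes, DNAJC10 and HYOU1, and in HYOU1 it overlapped the farther ERSE-II. In all, 12 of the 32 genes held at least 1 of these motifs and 20, PDIA4 and MANF among them, held none in these exact letters within this window. A match is a description of letters and not a measured binding site.

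The deposited values are FPKM (fragments scaled by transcript length and library size), which are comparable between genes of 1 library. The table is in 5 sections, treated here as normalised separately, so every target was compared with the control pair of its own section, and levels are not compared across sections. Fold changes are differences of log2(FPKM + 1), which understates the change of weakly expressed genes, and are given with their standard error. A gene was called when its Benjamini-Hochberg adjusted p from limma was under 0.05 over all genes tested in the section. Where groups are said not to overlap, this describes the libraries printed, since the share over all genes was not counted. The estimated depth at 1 FPKM was 17.3 to 22.0 fragments for each kilobase in the BRD8 section, 4.4 to 7.4 in the H2AZ section and 8.2 to 19.7 elsewhere. The BRD8 section stood apart, with 8081 to 8158 genes at 1 FPKM or more in each library, against 10503 to 11853 in the others. MEAF6 guide 2 and VPS72 guide 2 had columns that were identical in all 19102 genes and were left out, which leaves these targets with 1 library each. Of the 8 glioma markers examined, VIM (925.7 to 11300 FPKM), CD44 and EGFR were present in every library. SOX2 ran from 0.0644 to 79.0 FPKM, with a median of 29.3 FPKM. GFAP, OLIG2 and S100B reached at most 0.347 FPKM. NES had a median of 0.256 FPKM, with a highest value of 8.75 FPKM. Of the 8 markers of other cell types, PTPRC, CD3E, PECAM1, EPCAM, KRT20 and ALB reached at most 0.660 FPKM, unlike CD68 (0.978 to 74.0 FPKM) and VWF (up to 3.28 FPKM). The targeted mRNA was at 18.6% to 51.5% of its control and called lower for BRD8, H2AZ, TIP60, EP400, GAS41, ACTL6A, RUVBL1 and RUVBL2. It was not called for the other 8, at 40.5% for DMAP1 (adjusted p = 0.0642, limma), 51% for MRGBP (adjusted p = 0.0948, limma), 65.9% for ING3, 68.2% for MEAF6, 74.7% for VPS72, 82.3% for TRRAP, 92.8% for MORF4L2 and 103% for MORF4L1.

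Some of these transcripts are abundant in A382 and others are low. In the sgNeg3 libraries the highest were PPIB, a prolyl isomerase, at 520.6 ± 5.88 FPKM (SD, n = 2), HSP90B1 at 376.1 ± 2.97 FPKM and CALR, the lectin chaperone calreticulin, at 313.1 ± 7.89 FPKM. BiP stood at 112.7 FPKM there. The sensors were low, with ATF6 at 5.83, EIF2AK3 at 3.10 and ERN1 at 0.434 FPKM. DERL3, a derlin of the ERAD channel, was at or near 0 in every section and was tested nowhere, with a highest value of 0.324 FPKM. ERO1B, an oxidase that supplies disulfide bonds, passed the filter on low values in the p53 section alone, and ERN1 in the BRD8 and p53 sections. The filter required 1 FPKM in 2 libraries, so 32 genes were tested in all 16 knockouts.

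Over the 16 knockouts, 18 genes were called lower and never higher, 8 higher and never lower, 2 both ways (HERPUD1 and SYVN1) and 5 in no knockout. Summed over the knockouts there were 39 lower and 23 higher calls, so that 62.9% were lower, against 56.6% of all calls over all genes tested. The 8 genes and the 23 higher calls include ERN1, tested in BRD8 alone. It passed the filter there only through the BRD8 libraries. The calls came from 6 knockouts, BRD8, H2AZ, TIP60, TRRAP, RUVBL1 and RUVBL2, and the other 10 had none. PDIA4, a disulfide isomerase of the BiP complex, was called lower in 6 knockouts and HSP90B1 in 4. BiP itself was called in 1, RUVBL2. The ERAD channel subunit DERL1 was called higher in 4. TIP60 and TRRAP share the sgNeg2 controls, and RUVBL1 and RUVBL2 share the sgNeg3 controls, so these counts are not independent.

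**Figure D1:**
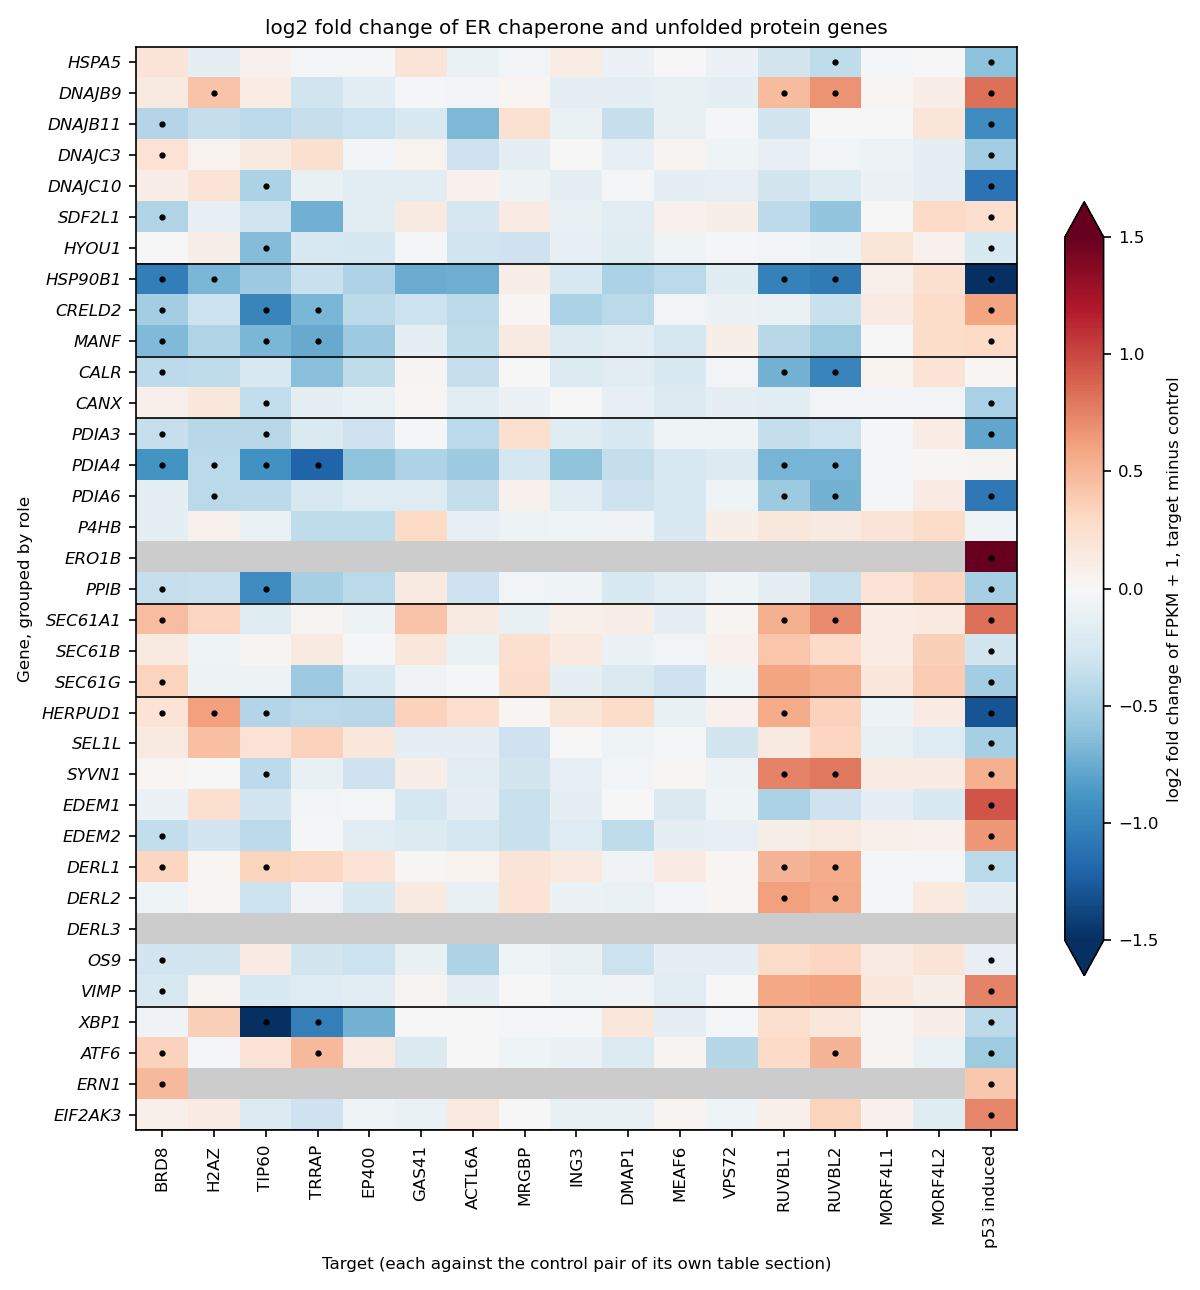
Colour gives the log2 fold change of FPKM + 1 for each of the 35 genes (rows, grouped by role) in each of 17 comparisons (columns, target minus the control pair of its section), and a dot marks an adjusted p under 0.05 from limma. Grey cells were not tested. PDIA4 and HSP90B1 are blue in most knockout columns, and dots are absent from 10 of the 16 knockouts.

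BRD8 loss lowered GRP94, PDIA4 and the secreted factors MANF and CRELD2, and raised SEC61A1, SEC61G and ATF6, while BiP was not called. In all, 19 of the 33 genes tested were called, 7 higher and 12 lower (57.6%, against 45.9% of all tested genes, 24.2% higher and 21.7% lower). The 7 include ERN1, which passed the filter only through the BRD8 libraries. DNAJB9 (0.13), which was not called, also passed only through them. The median log2 fold change of the 33 genes was -0.05, against 0.02 over all genes. Rescaling each library to its section's median ratio gave 5 higher and 14 lower. In bulk RNA, fewer cells of a kind and less RNA per cell cannot be told apart.

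HSP90B1 measured 85.9, 82.2, 98.2 and 91.4 FPKM in BRD8 libraries, against 197.8 and 172.5 FPKM in sgNeg1 libraries. All BRD8 libraries lay under both controls, at 48.3% of the control mean, a log2 fold change of -1.04 ± 0.08 (adjusted p = 1.68e-05, limma). PDIA4 measured 9.46, 8.89, 10.8 and 9.52 FPKM in BRD8 libraries, against 18.8 and 19.1 FPKM in sgNeg1 libraries. The groups did not overlap, and the change was -0.90 ± 0.07 (adjusted p = 1.99e-05, limma). MANF, a secreted neurotrophic factor that binds BiP, measured 15.4, 15.8, 16.4 and 16.8 FPKM, against 27.5 and 24.6 FPKM in sgNeg1 libraries (-0.66 ± 0.06). CRELD2, a small ER protein induced by ER stress, measured 11.0, 11.9, 12.4 and 10.2 FPKM, against 17.4 and 15.9 FPKM in sgNeg1 libraries (-0.52 ± 0.08). Both were lower in every BRD8 library than in either control.

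BiP measured 29.5, 30.9, 27.0 and 25.9 FPKM in BRD8 libraries, against 24.3 and 24.9 FPKM in sgNeg1 libraries. Every BRD8 library was above both controls, but the change of 0.19 ± 0.07 was not called (adjusted p = 0.0568, limma). The remaining genes called lower had smaller changes. Among the chaperones these were SDF2L1 (-0.45), a stabiliser of the BiP cycle, the BiP cochaperone DNAJB11 (-0.44) and CALR (-0.39). The others were EDEM2 (-0.37), which trims mannose to mark proteins for disposal, the disulfide isomerase PDIA3 (-0.35), PPIB (-0.34), the ERAD lectin OS9 (-0.29) and the ERAD membrane protein VIMP (-0.24).

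The genes called higher in BRD8 libraries came from the translocon, the sensors, ERAD and the BiP cochaperones. ERN1 measured 1.58, 1.25, 1.16 and 1.10 FPKM in BRD8 libraries, against 0.538 and 0.694 FPKM in sgNeg1 libraries. It was above both controls in all 4, by 0.49 on the log2 scale. Since it passed the filter of 1 FPKM only through the BRD8 libraries, this value is given with no test. SEC61A1, the channel subunit of the translocon, measured 48.2, 49.6, 45.3 and 47.6 FPKM, against 34.5 and 34.4 FPKM in sgNeg1 libraries. No BRD8 library reached down to the controls, and the change was 0.46 ± 0.06 (adjusted p = 0.000188, limma). ATF6 (0.35), SEC61G (0.33), DERL1 (0.32), the BiP cochaperone DNAJC3 (0.22) and HERPUD1 (0.21), an ERAD scaffold, were also called higher. The calls of DNAJC3 and HERPUD1 were lost on rescaling, with adjusted p of 0.0554 and 0.0649 (limma). XBP1 (-0.05 ± 0.11) and EIF2AK3 (0.08 ± 0.08) were not called.

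H2AZ loss lowered GRP94 and 2 disulfide isomerases and raised HERPUD1 and DNAJB9. These 5 of 32 genes, 2 higher and 3 lower, are 15.6%, against 6.02% of all tested genes, 2.6% higher and 3.42% lower. The medians were -0.02 for the 32 genes and -0.01 for all genes. Each call except that of HERPUD1 was lost on leaving out at least 1 library. The count was 1 without H2AZ guide 1 replicate 2 or without guide 2 replicate 1, 2 without guide 2 replicate 2, 3 without sgNeg4 replicate 1 and 12 without sgNeg4 replicate 2. Rescaling gave 4 higher and 3 lower.

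HSP90B1 measured 453.5, 435.1, 451.6 and 501.6 FPKM in H2AZ libraries, against 842.5 and 645.7 FPKM in sgNeg4 libraries. The 4 H2AZ libraries were close together and under both controls, which differed more between themselves (-0.68 ± 0.14, adjusted p = 0.0178, limma). HERPUD1 measured 52.3, 44.9, 44.0 and 48.6 FPKM, against 33.4 and 28.3 FPKM in sgNeg4 libraries. All H2AZ libraries were higher (0.61 ± 0.11, adjusted p = 0.0107, limma). DNAJB9, a BiP cochaperone that represses IRE1, measured 12.2, 11.8, 12.6 and 12.7 FPKM, against 9.34 and 8.47 FPKM in sgNeg4 libraries. It too was higher in every H2AZ library (0.43 ± 0.10).

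PDIA4 measured 77.8, 72.3, 69.4 and 78.2 FPKM in H2AZ libraries, against 102.5 and 95.8 FPKM in sgNeg4 libraries (-0.41 ± 0.09). PDIA6, another disulfide isomerase, measured 157.0, 158.4, 160.2 and 169.1 FPKM, against 234.4 and 197.4 FPKM in sgNeg4 libraries (-0.41 ± 0.10). Neither gene's groups overlapped, and the adjusted p-values were 0.033 and 0.0454 (limma). BiP measured 164.6, 168.1, 169.0 and 175.8 FPKM, against 196.7 and 175.3 FPKM in sgNeg4 libraries, which overlap (-0.13 ± 0.10). XBP1 measured 62.9, 67.1, 59.4 and 68.3 FPKM in H2AZ libraries, all above the 50.9 and 48.6 FPKM of sgNeg4 libraries. Its change of 0.36 ± 0.09 stood just outside the threshold (adjusted p = 0.0507, limma). ATF6 (-0.03 ± 0.13) and EIF2AK3 (0.12 ± 0.11) were not called, and ERN1 at 0.220 FPKM was not tested.

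When the effects of H2AZ and BRD8 loss were set against each other in 1 limma fit over 46 libraries, 0 of 32 genes differed at an adjusted p under 0.05. The share over all 8160 genes was 3.74%. At an unadjusted p under 0.05, 6 of the 32 and 1486 of all genes differed. HSP90B1 differed by 0.36 ± 0.24 (H2AZ minus BRD8) and PDIA4 by 0.49 ± 0.17, the largest difference in size among the 32. The joint fit takes its spread from all sections. For both genes its standard error was wider than in either section's own fit. A p that misses the threshold does not show that both losses act alike.

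TIP60 loss gave its largest change among these genes in XBP1, and 11 of its 12 calls were lower. TIP60 is the acetyltransferase subunit, encoded by KAT5. Of the 32 genes tested, 37.5% were called, which is under the 42% of all genes. The direction was uneven, with 1 called higher and 11 lower, against 15.4% of all genes called higher and 26.6% lower. The median was -0.31 over the 32 genes and -0.09 over all genes, and 24 of the 32 changes were below 0 (75%, against 58.2% of all). Rescaling took the counts to 1 higher and 6 lower, and the share of higher calls among all called genes to 49.9%, against 36.7% as deposited. CANX, DNAJC10, HERPUD1, PDIA3 and SYVN1 lost their calls there. The count of 12 was 6 without sgNeg2 replicate 1, 5 without sgNeg2 replicate 2 and 7 without TIP60 guide 2.

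XBP1 measured 11.6 and 8.18 FPKM in TIP60 libraries, against 28.4 and 30.3 FPKM in sgNeg2 libraries. Both guides were far under both controls, at 33.6% of the control mean (-1.5 ± 0.24, adjusted p = 0.000154, limma). CRELD2 measured 20.0 and 15.0 FPKM, against 38.9 and 32.3 FPKM in sgNeg2 libraries (-0.99 ± 0.21). PDIA4 measured 43.4 and 39.5 FPKM, against 80.2 and 76.9 FPKM in sgNeg2 libraries (-0.91 ± 0.19). The groups did not overlap for either gene, and the adjusted p-values were 0.00142 and 0.00145 (limma).

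PPIB measured 378.7 and 243.6 FPKM in TIP60 libraries, against 603.6 and 564.1 FPKM in sgNeg2 libraries (-0.94 ± 0.25). MANF measured 93.9 and 64.3 FPKM, against 133.0 and 119.8 FPKM in sgNeg2 libraries (-0.69 ± 0.24). In both, guide 2 was the lower library, and without it the changes were -0.62 (adjusted p = 0.0868, limma) for PPIB and -0.42 (adjusted p = 0.242, limma) for MANF. Leaving out either control library also ended the call of MANF, with adjusted p of 0.134 and 0.0678 (limma). HYOU1, an HSP110-like exchange factor of BiP, measured 27.7 and 21.0 FPKM, against 37.7 and 39.0 FPKM in sgNeg2 libraries (-0.65 ± 0.15, adjusted p = 0.00231, limma).

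Smaller calls in TIP60 libraries were lower for the BiP-linked reductase DNAJC10 (-0.48), HERPUD1 (-0.44), PDIA3 (-0.42), the ERAD ubiquitin ligase SYVN1 (-0.39) and the lectin chaperone CANX (-0.37). DERL1 was the 1 gene called higher (0.33 ± 0.10). BiP measured 130.1 and 124.3 FPKM in TIP60 libraries, against 118.7 and 126.0 FPKM in sgNeg2 libraries, and these overlap (0.06 ± 0.13). HSP90B1 measured 309.9 and 307.9 FPKM, against 425.1 and 477.2 FPKM in sgNeg2 libraries, a change that was not called (-0.54 ± 0.26, adjusted p = 0.103, limma). ATF6 (0.21 ± 0.13) and EIF2AK3 (-0.21 ± 0.19) were not called. ERO1B, under the filter and not tested, measured 0.631 and 1.05 FPKM in TIP60 libraries, against 0.0639 and 0.103 FPKM in sgNeg2 libraries.

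In the libraries labelled TRRAP, a scaffold of the complex, 5 of 32 genes were called, 1 higher and 4 lower (15.6%, against 14.2% of all genes, 6.54% higher and 7.71% lower), a share near the background. The targeted mRNA was not called in these libraries. Of the 32 changes, 26 were below 0 (81.2%, against 52.2% of all genes). PDIA4 measured 40.2 and 28.2 FPKM in TRRAP libraries, against 80.2 and 76.9 FPKM in sgNeg2 libraries (-1.20 ± 0.19, adjusted p = 0.00207, limma). Both guides were under both controls, and guide 2 was lower. XBP1 measured 20.1 and 9.64 FPKM, against 28.4 and 30.3 FPKM in sgNeg2 libraries (-1.02 ± 0.24). MANF (-0.76) and CRELD2 (-0.69) were also called lower. ATF6 measured 7.90 and 10.6 FPKM, against 5.54 and 6.97 FPKM in sgNeg2 libraries, and was called higher (0.49 ± 0.13). Without guide 2 none of the 32 genes was called, and without guide 1 the count was 9. It was 1 without sgNeg2 replicate 1 and 2 without sgNeg2 replicate 2.

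In the other 8 targets of that section no gene of the 32 was called by limma. The background was low. It was 3.83% of all genes in EP400 (1.56% higher and 2.27% lower), 0.94% in GAS41 (0.58% higher and 0.36% lower) and 0.782% in ACTL6A (0.22% higher and 0.562% lower). It was 0.264% in MRGBP (0.176% higher and 0.0879% lower), 0.0264% in ING3 and 0% in DMAP1, MEAF6 and VPS72. Without ACTL6A guide 1 the ACTL6A count was 1. Rescaling moved the share of higher calls among all called genes in MRGBP to 86.7%, against 66.7% as deposited. At an unadjusted p under 0.05 the counts among the 32 were 5 for EP400, 4 for GAS41, 7 for ACTL6A, 2 for MRGBP, 2 for ING3, 1 for DMAP1, 0 for MEAF6 and 1 for VPS72. EP400, the SWI/SNF-type ATPase of the complex, had 29 of 32 changes below 0 (90.6%, against 55.2% of all genes), with a median of -0.21. XBP1 measured 18.6 and 16.6 FPKM in EP400 libraries, against 28.4 and 30.3 FPKM in sgNeg2 libraries, and did not pass (-0.71 ± 0.24, adjusted p = 0.106, limma). PDIA4 measured 50.5 and 52.3 FPKM there, against 80.2 and 76.9 FPKM in sgNeg2 libraries (-0.60 ± 0.19, adjusted p = 0.0898, limma). Changes below 0 also numbered 28 of 32 in DMAP1, 27 in ING3, 26 in ACTL6A, 26 in MEAF6 and 24 in VPS72, against 18 in MRGBP and 17 in GAS41. Over all genes the share below 0 was 50.9% in DMAP1, 51% in ING3, 54.3% in ACTL6A and 57.6% in MEAF6. It was 53% in VPS72, 52.6% in MRGBP and 53.9% in GAS41. All of these share the same sgNeg2 pair, so they are not separate tests of a common direction.

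Loss of RUVBL1 or RUVBL2, the paired AAA+ ATPases of the complex, lowered GRP94, CALR, PDIA4 and PDIA6 and raised SYVN1, DERL1, DERL2, SEC61A1 and DNAJB9. In RUVBL2 libraries BiP was also called lower and ATF6 higher, and in RUVBL1 libraries HERPUD1 was higher. RUVBL1 had 10 of 32 genes called, 6 higher and 4 lower (31.2%, against 27.8% of all genes, 12.3% higher and 15.5% lower). RUVBL2 had 11 of 32, 6 higher and 5 lower (34.4%, against 33.4%, 13.5% higher and 19.9% lower), so neither share was far from its background. The medians were 0.02 for RUVBL1 and 0.07 for RUVBL2, against -0.02 and -0.05 over all genes. Of the 9 ERAD genes tested, RUVBL1 libraries had 4 called higher and 0 lower, and RUVBL2 libraries 3 and 0. With 1 library left out, the RUVBL1 count was 3 without either sgNeg3 library, 5 without guide 1 and 2 without guide 2. The RUVBL2 count was 7 without its guide 2. Rescaling gave 6 higher and 6 lower for RUVBL1, and 8 higher and 6 lower for RUVBL2. BiP was then called lower in RUVBL1 libraries too (-0.34, adjusted p = 0.0274, limma). HERPUD1 was then called higher in RUVBL2 libraries too (0.34, adjusted p = 0.0223, limma). MANF was then called lower in both, and OS9 higher in RUVBL2 libraries.

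HSP90B1 measured 172.3 and 188.7 FPKM in RUVBL2 libraries and 195.3 and 178.7 FPKM in RUVBL1 libraries, against 378.2 and 374.0 FPKM in sgNeg3 libraries. The means were 48.0% and 49.7% of the control mean, with changes of -1.06 ± 0.17 in RUVBL2 (adjusted p = 0.00211, limma) and -1.01 ± 0.17 in RUVBL1 (adjusted p = 0.00382, limma). Without RUVBL1 guide 2 the RUVBL1 call was lost at an adjusted p of 0.0506 (limma). CALR measured 149.7 and 165.8 FPKM in RUVBL2 libraries and 197.9 and 183.7 FPKM in RUVBL1 libraries, against 307.5 and 318.7 FPKM in sgNeg3 libraries. It was called lower in both (-0.99 ± 0.19 in RUVBL2 and -0.71 ± 0.19 in RUVBL1). The RUVBL1 call was lost on leaving out any 1 of the 4 libraries, with adjusted p from 0.0818 to 0.168, and the RUVBL2 call without RUVBL2 guide 1, at 0.0522 (limma).

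PDIA4 measured 42.2 and 44.1 FPKM in RUVBL2 libraries and 44.9 and 41.5 FPKM in RUVBL1 libraries, against 72.9 and 69.1 FPKM in sgNeg3 libraries. The groups did not overlap, and both changes were -0.70 ± 0.11 (adjusted p = 0.00159 and 0.00247, limma). PDIA6 measured 82.4 and 89.7 FPKM in RUVBL2 libraries, against 144.8 and 137.5 FPKM in sgNeg3 libraries (-0.71 ± 0.13). It was called lower in RUVBL1 libraries too (-0.55 ± 0.13). BiP measured 83.8 and 88.9 FPKM in RUVBL2 libraries and 93.2 and 92.1 FPKM in RUVBL1 libraries, against 113.0 and 112.4 FPKM in sgNeg3 libraries. It lay under the controls in all 4, but passed in RUVBL2 (-0.38 ± 0.12, adjusted p = 0.0368, limma) and not in RUVBL1 (-0.28 ± 0.12, adjusted p = 0.111, limma).

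SYVN1 measured 24.9 and 23.9 FPKM in RUVBL2 libraries and 21.9 and 25.2 FPKM in RUVBL1 libraries, against 13.3 and 14.1 FPKM in sgNeg3 libraries. It was above both controls with every guide (0.79 ± 0.11 and 0.74 ± 0.11, adjusted p = 0.000982 and 0.00212, limma). SEC61A1 measured 225.1 and 231.0 FPKM in RUVBL2 libraries and 198.2 and 203.2 FPKM in RUVBL1 libraries, against 137.8 and 140.5 FPKM in sgNeg3 libraries. The 3 groups were distinct, and both changes were called (0.71 ± 0.13 in RUVBL2 and 0.53 ± 0.13 in RUVBL1). DERL2, a derlin like DERL1, measured 12.5 and 15.1 FPKM in RUVBL2 libraries and 13.2 and 15.4 FPKM in RUVBL1 libraries, against 9.33 and 8.57 FPKM in sgNeg3 libraries (0.57 ± 0.19 and 0.62 ± 0.19). Its RUVBL1 call was lost without any 1 library, as was that of HERPUD1.

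HERPUD1 measured 43.0 and 41.9 FPKM in RUVBL1 libraries, against 28.3 and 28.8 FPKM in sgNeg3 libraries (0.56 ± 0.13, adjusted p = 0.0156, limma). In RUVBL2 libraries its change of 0.34 was not called. DERL1 (0.56 in RUVBL2 and 0.51 in RUVBL1) and DNAJB9 (0.67 and 0.48) were called higher in both. ATF6 measured 8.19 and 9.34 FPKM in RUVBL2 libraries, against 6.09 and 5.58 FPKM in sgNeg3 libraries, and was called higher (0.51 ± 0.12). In RUVBL1 libraries it did not pass (0.29 ± 0.12). XBP1 measured 42.3 and 43.3 FPKM in RUVBL2 libraries and 46.3 and 44.2 FPKM in RUVBL1 libraries, above the 38.0 and 37.7 FPKM of sgNeg3 libraries, without a call (0.17 ± 0.16 and 0.25 ± 0.16). EIF2AK3 was not called in either (0.33 ± 0.20 and 0.08 ± 0.20).

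A direct contrast of RUVBL2 with RUVBL1 called 0 of 32 genes by limma, with 0 at an unadjusted p under 0.05. Over all genes it called 1 (0.00904%), with 594 at an unadjusted p under 0.05. The largest difference in size among the 32 was 0.30, in DNAJB11. The other targets of the section, MORF4L1 and MORF4L2, had 0 calls among the 32 genes by limma and among all genes (0% in each). At an unadjusted p under 0.05 both had 0 of the 32, and 85 and 230 of all genes. Without MORF4L2 guide 1 the MORF4L2 count was 5.

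**Figure D2:**
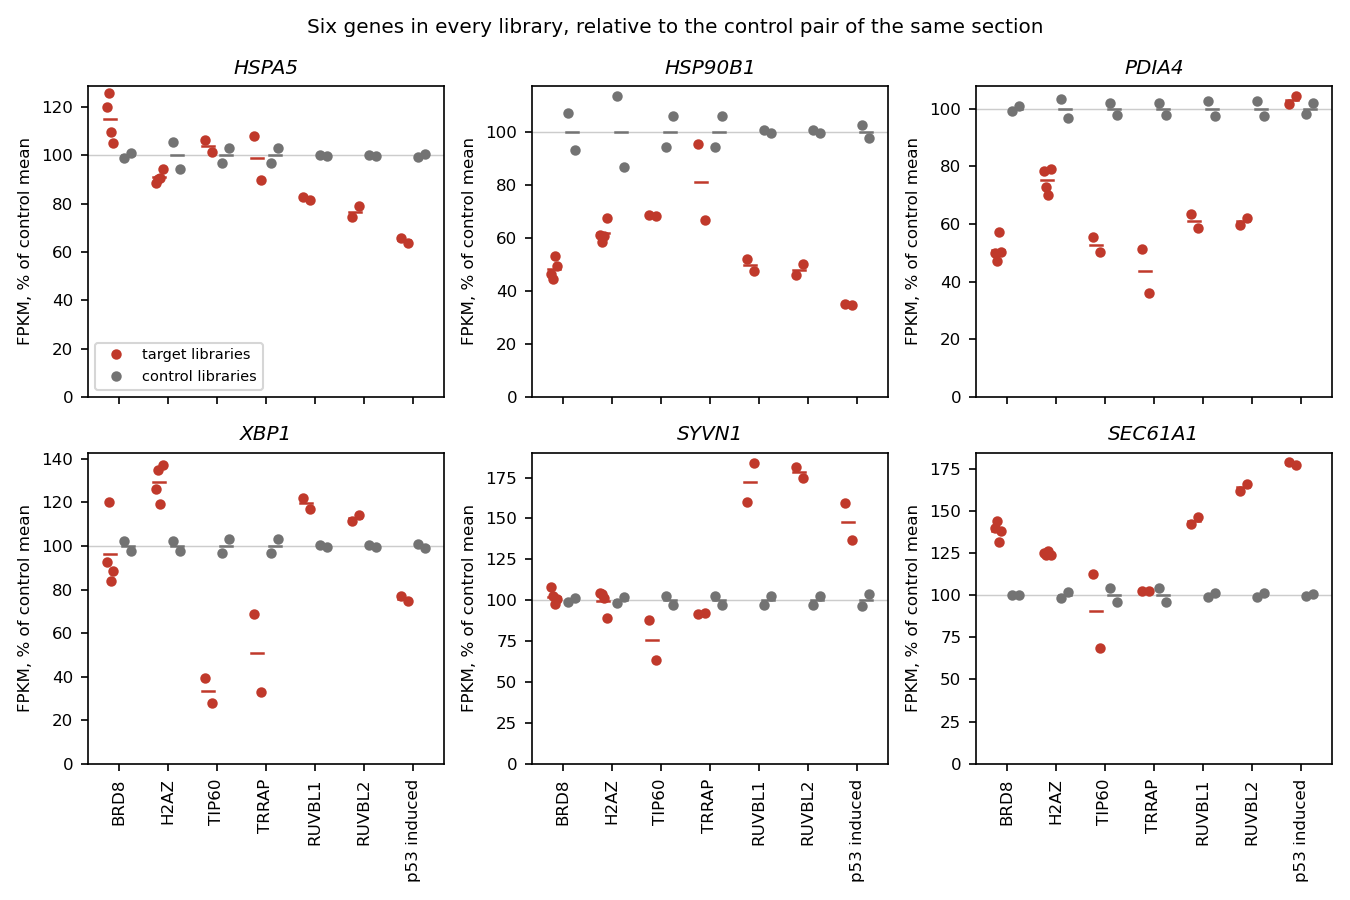
Each panel shows 1 gene as a percent of the mean FPKM of its own control pair, with red points for target libraries, grey points for control libraries and short lines for means. HSP90B1 and PDIA4 sit under their controls in BRD8, H2AZ, RUVBL1 and RUVBL2 libraries, XBP1 is low in TIP60 libraries, at a mean of 33.6%, and SYVN1 and SEC61A1 are high in RUVBL1 and RUVBL2 libraries.

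RUVBL2 and TIP60 loss, which have separate controls, differed in 11 of 32 genes, 9 with the RUVBL2 effect more positive and 2 more negative. That share lies below the 36.5% of all 8160 genes that differed. The widest gap was XBP1, at 0.17 in RUVBL2 and -1.5 in TIP60 libraries, a difference of 1.67 ± 0.27 (adjusted p = 1.88e-05, limma). SYVN1 was called higher in RUVBL2 libraries and lower in TIP60 libraries, a difference of 1.18 ± 0.15 (adjusted p = 5.57e-07, limma). The difference was 0.89 for SEC61A1, 0.88 for DERL2, 0.83 for VIMP, 0.78 for HERPUD1, 0.57 for HYOU1, 0.56 for DNAJB9 and 0.55 for EDEM2. CALR (-0.75) and BiP (-0.44) went the other way. For PDIA4 the effects were -0.70 in RUVBL2 and -0.91 in TIP60 libraries, and their difference did not pass.

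**Figure D3:**
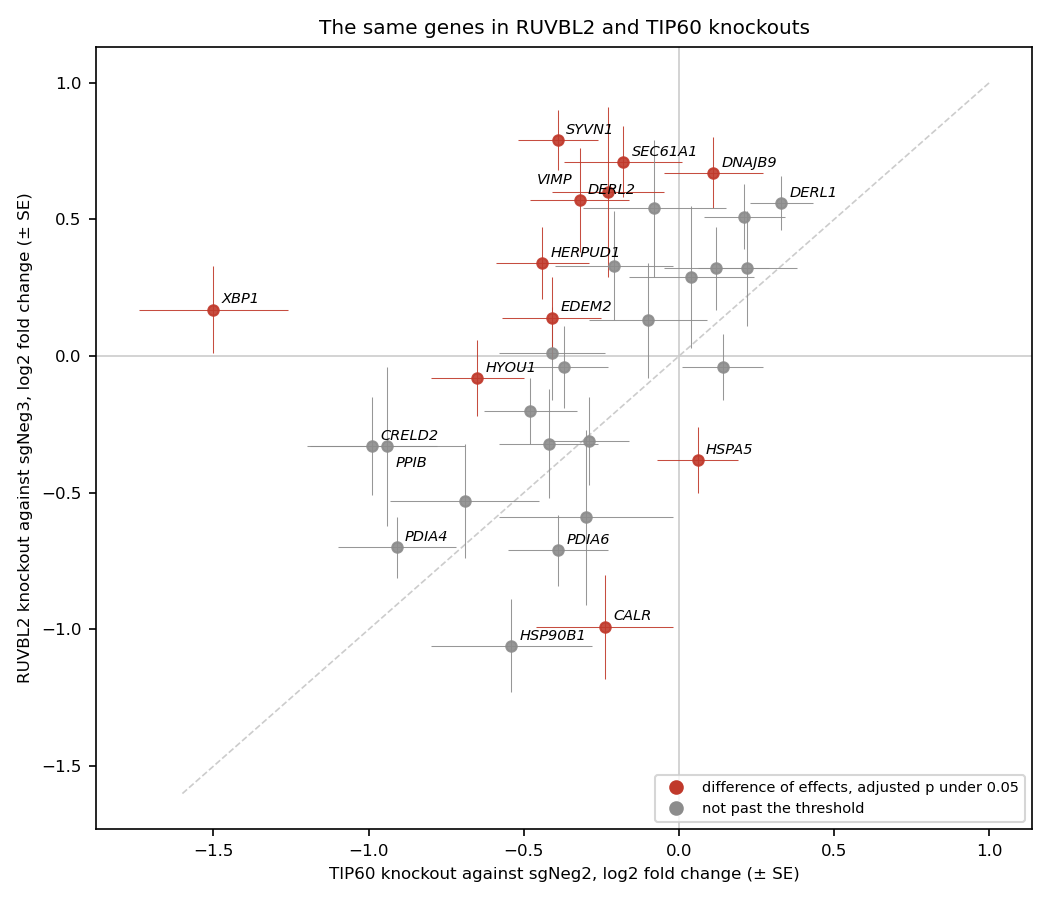
Each point is 1 of 32 genes, with its log2 fold change in TIP60 libraries on the x axis and in RUVBL2 libraries on the y axis, and bars are standard errors. Red points are the 11 genes whose effects differed at an adjusted p under 0.05 in the joint limma fit, and the dashed line marks equal effects. XBP1 lies at the far left and SYVN1 at the top.

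Set against H2AZ loss, RUVBL2 loss differed in 5 of 32 genes (25.7% of all genes differed). SYVN1 (0.80 ± 0.14), OS9 (0.60), ATF6 (0.54) and DERL1 (0.52) were more positive in RUVBL2 libraries, and EDEM1 (-0.55), a mannosidase-like ERAD factor, was more negative.

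Inducing p53 changed most of these genes, as it did most of the transcriptome. Of 34 genes tested, 30 were called, 12 higher and 18 lower (88.2%, against 84.3% of all genes, 37.6% higher and 46.7% lower), which is near the background. The 12 include ERO1B, which passed the filter only through the p53 libraries. GRP94, BiP, PDIA3, PDIA6 and PPIB fell and SEC61A1 rose. The 9 ERAD genes tested split into 4 higher (SYVN1, EDEM1, EDEM2 and VIMP), 4 lower (HERPUD1, SEL1L, DERL1 and OS9) and DERL2, which was not called. The median was -0.18 over the 34 genes and -0.13 over all genes. Rescaling moved the median of all genes to 0.06 and the counts to 15 higher and 15 lower, so changes are best read against -0.13. On rescaling HYOU1 (-0.23), SEC61B (-0.27) and OS9 (-0.12) lost their calls, OS9 with a turned sign, and CALR, P4HB and PDIA4 were called higher.

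ERO1B measured 6.07 and 6.53 FPKM in p53 libraries, against 0.106 and 0.217 FPKM in control vector libraries. It was nearly silent without p53, and the groups differed by 2.65 on the log2(FPKM + 1) scale. Since ERO1B passed the filter only through the p53 libraries, where it is high, this value is given with no test. In the knockout sections it stayed between 0.0555 and 1.05 FPKM and was not tested. HSP90B1 measured 118.3 and 117.0 FPKM in p53 libraries, against 346.9 and 329.6 FPKM in control vector libraries. It fell to 34.8% of the control mean (-1.52 ± 0.04, adjusted p = 1.04e-07, limma).

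HERPUD1 measured 24.6 and 21.9 FPKM in p53 libraries, against 57.8 and 59.0 FPKM in control vector libraries (-1.29 ± 0.06, adjusted p = 1.12e-06, limma). DNAJC10 measured 12.9 and 12.6 FPKM, against 29 and 28.5 FPKM in control vector libraries (-1.11 ± 0.05). PDIA6 measured 101.9 and 100.1 FPKM, against 218.5 and 206.6 FPKM in control vector libraries (-1.07 ± 0.05). All 3 were under their controls in both p53 libraries. BiP measured 85.9 and 83.2 FPKM, against 129.6 and 131.4 FPKM in control vector libraries, and fell (-0.62 ± 0.04, adjusted p = 6.56e-06, limma). Lower calls also covered DNAJB11 (-0.93), PDIA3 (-0.78), DNAJC3 (-0.52), SEC61G (-0.52), PPIB (-0.50), CANX (-0.49) and DERL1 (-0.40). SEL1L (-0.50), the partner of SYVN1 in the ERAD ligase, was lower as well.

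EDEM1 measured 23.7 and 25.9 FPKM in p53 libraries, against 12.5 and 12.4 FPKM in control vector libraries (0.94 ± 0.06, adjusted p = 6.18e-06, limma). SEC61A1 measured 273.9 and 271.0 FPKM, against 152.2 and 154.1 FPKM in control vector libraries (0.83 ± 0.04). Both rose with no overlap. DNAJB9 (0.83), VIMP (0.74), EDEM2 (0.65), CRELD2 (0.59), SYVN1 (0.53), MANF (0.30) and SDF2L1 (0.25) were also higher. The disulfide isomerases PDIA4 (0.04 ± 0.04) and P4HB (-0.05) were not called, nor were CALR (0.03) and DERL2 (-0.13).

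The sensors diverged under p53. EIF2AK3 measured 5.97 and 5.52 FPKM in p53 libraries, against 2.84 and 3.31 FPKM in control vector libraries, and rose (0.73 ± 0.09, adjusted p = 0.000173, limma). ERN1 measured 1.79 and 2.08 FPKM, against 1.28 and 1.17 FPKM in control vector libraries, and rose (0.40 ± 0.09). ATF6 measured 6.04 and 5.93 FPKM, against 9.11 and 9.01 FPKM in control vector libraries, and fell (-0.53 ± 0.07). XBP1 measured 52.2 and 50.8 FPKM, against 68.6 and 67.1 FPKM in control vector libraries, and fell (-0.39 ± 0.05). In each of the 4 genes the p53 and control vector libraries did not overlap. The share of all genes without overlap was not counted, and the comparison called 84.3% of all genes.

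**Figure D4:**
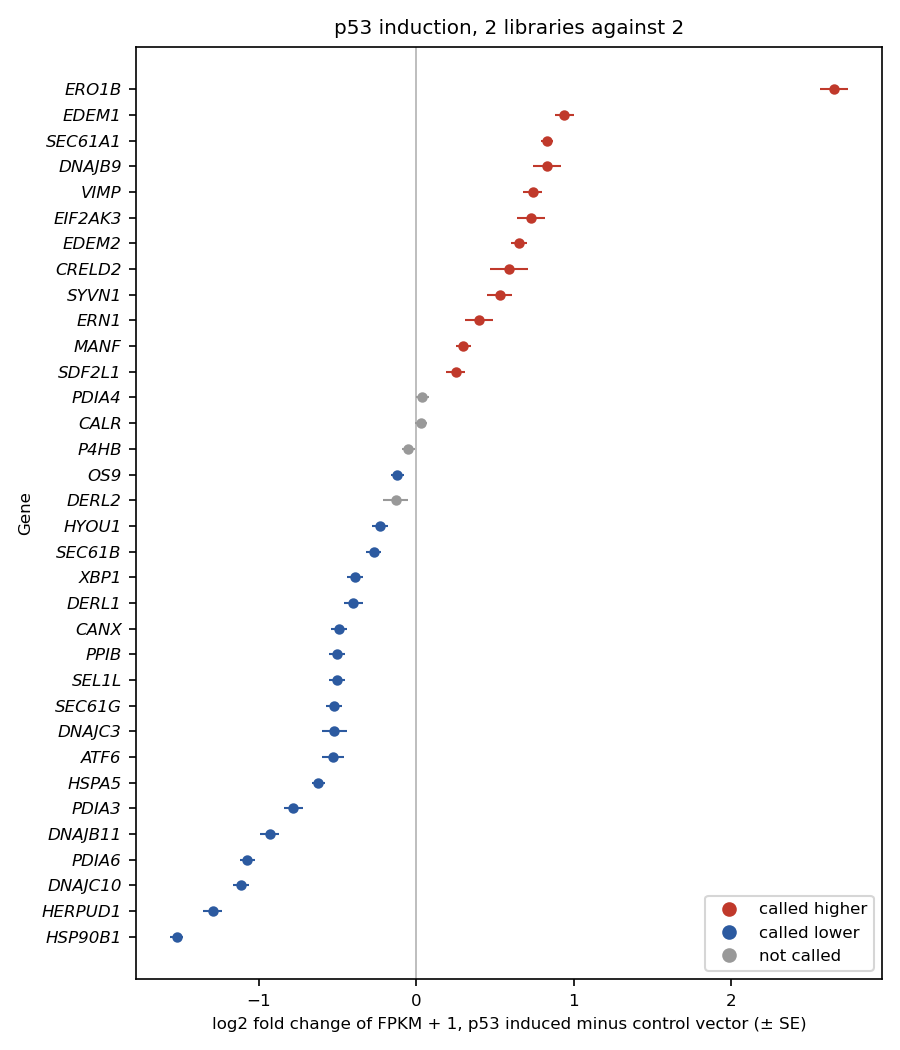
Points are log2 fold changes of FPKM + 1 in 2 p53 libraries minus 2 control vector libraries for the 34 tested genes, sorted, with standard errors as bars. Red marks the 12 genes called higher, blue the 18 called lower and grey the 4 not called. ERO1B stands far to the right at 2.65 and HSP90B1 at the other end at -1.52.

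Compared directly, p53 induction and BRD8 loss differed in 20 of 32 genes (62.9% of all genes differed), 9 with the p53 effect more positive. The 9 include DNAJB9, which passed the filter in the BRD8 section only through the BRD8 libraries. Its difference of 0.70 is given with no test. HSP90B1 was lower in both, at -1.52 with p53 and -1.04 with BRD8 loss, and that difference (-0.47 ± 0.26) did not pass. The joint fit takes its spread from all sections, so this standard error was wider than in either section's own fit. PDIA4, MANF and CRELD2, all lower after BRD8 loss, were not lower with p53, and the differences were 0.95 ± 0.19, 0.96 ± 0.29 and 1.11 ± 0.25. HERPUD1 (-1.5 ± 0.17), DNAJC10 (-1.21 ± 0.16), ATF6 (-0.87 ± 0.16) and BiP (-0.81 ± 0.13) were more negative with p53. EDEM1 and EDEM2 were each more positive by 1.03.

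The wider pathway was read through 6 further lists. The PERK and CHOP list holds 14 genes, such as ATF4, the stress-induced hormone STC2 and the phosphatase subunit PPP1R15A. Its name is a label for the list, and PERK activity was not measured. In BRD8 libraries 12 genes passed the filter, CEBPB only through the BRD8 libraries, and 12 were called higher (median 0.80, with 24.2% of all genes higher). It had 12 of 14 in H2AZ libraries (median 1.13, with 2.6% of all higher). RUVBL1 libraries had 10 of 14 higher (median 1.06, with 12.3% of all higher), and RUVBL2 libraries had 7 higher and 1 lower (median 0.57, with 13.5% of all higher). STC2 averaged 46.4 FPKM in RUVBL2 libraries, 42.2 FPKM in RUVBL1 libraries and 8.66 FPKM in sgNeg3 libraries (2.30 ± 0.12 and 2.16 ± 0.12). It was also called higher in BRD8 (1.30 ± 0.09), H2AZ (1.54 ± 0.10), TIP60 (1.80 ± 0.41) and GAS41 (1.97 ± 0.41) libraries. TIP60 libraries had 2 higher and 2 lower (14.3% each, against 15.4% and 26.6% of all genes, median 0.03), p53 libraries 7 higher and 7 lower (50% each, against 37.6% and 46.7%, median 0.07), and TRRAP libraries 0 higher and 3 lower (median -0.32, with 7.71% of all lower). NUPR1, a stress-induced chromatin protein, averaged 2.58 FPKM in TIP60 libraries and 1.31 FPKM in TRRAP libraries, against 13.4 FPKM in sgNeg2 libraries (-2.07 ± 0.25 and -2.65 ± 0.25). It was also called lower in EP400 libraries (-1.51 ± 0.25), and these falls share the sgNeg2 pair. In BRD8 libraries NUPR1 averaged 15.9 FPKM, against 4.38 FPKM in sgNeg1 libraries (1.65 ± 0.12), and it was higher in H2AZ libraries too (1.74 ± 0.12).

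Among 34 other ER folding factors, TIP60 libraries had 4 called higher and 12 lower (11.8% and 35.3%, against 15.4% and 26.6% of all genes, median -0.19), not far from the background. SERPINH1, the collagen chaperone HSP47, averaged 7.72 FPKM in TIP60 libraries and 44.1 FPKM in sgNeg2 libraries (-2.39 ± 0.21, adjusted p = 2.05e-06, limma). The same list had 10 higher and 10 lower in BRD8 libraries, where TMX4 passed the filter only through the BRD8 libraries. The list had 1 higher and 0 lower in H2AZ, 2 and 6 in TRRAP, 4 and 6 in RUVBL1, and 4 and 7 in RUVBL2. In p53 libraries the list had 3 and 23 (8.82% and 67.6%). The shares over all genes called higher and lower, against which this and the next lists are read, were 24.2% and 21.7% in BRD8. They were 2.6% and 3.42% in H2AZ, 15.4% and 26.6% in TIP60, and 6.54% and 7.71% in TRRAP. They were 12.3% and 15.5% in RUVBL1, 13.5% and 19.9% in RUVBL2, and 37.6% and 46.7% in p53 libraries. The 17 genes of COPII transport, which carries cargo out of the ER, had 0 higher and 8 lower in TIP60 libraries (0% and 47.1%, against 15.4% and 26.6% of all genes, median -0.23). They include SEC24D (-1.30 ± 0.16), a cargo adaptor of the coat, and KDELR3 (-1.10 ± 0.16), a receptor that returns ER proteins from the Golgi. COPII genes had 3 higher and 5 lower in BRD8 libraries (17.6% and 29.4%, against 24.2% and 21.7%), 0 and 0 in H2AZ, 2 and 1 in TRRAP, 1 and 2 in RUVBL1, 4 and 1 in RUVBL2, and 8 and 8 in p53 libraries (47.1% each, against 37.6% and 46.7%).

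The list of translocon, signal peptidase and oligosaccharyl transferase genes had 2 of 25 called higher and 21 lower with p53 (median -0.56, with 46.7% of all genes lower). RPN2, a subunit of the transferase, averaged 184.3 FPKM in p53 libraries and 398.3 FPKM in control vector libraries (-1.11 ± 0.05). Its counts were 9 higher and 7 lower of 24 in BRD8 libraries, 0 and 0 in H2AZ, 3 and 9 in TIP60, 3 and 1 in TRRAP, 3 and 2 in RUVBL1, and 4 and 0 in RUVBL2. The 20 other ERAD genes had 8 higher and 2 lower of 18 tested in BRD8 libraries (44.4% and 11.1%, against 24.2% and 21.7% of all genes). With all 20 tested, the counts were 0 and 0 in H2AZ, 3 and 3 in TIP60, 4 and 1 in TRRAP, 4 and 0 in RUVBL1, 4 and 0 in RUVBL2, and 4 and 13 in p53 libraries (20% and 65%, against 37.6% and 46.7%). Of 11 other regulators, such as the ATF6 paralogue ATF6B, 9 were tested in BRD8 libraries, with 3 higher and 3 lower (33.3% each). In the comparisons that follow, 10 were tested. The counts were 0 and 0 in H2AZ, 1 and 3 in TIP60 (10% and 30%) and 0 and 1 in TRRAP (0% and 10%). They were 2 and 1 in RUVBL1 (20% and 10%), 3 and 1 in RUVBL2 (30% and 10%), and 3 and 4 in p53 libraries (30% and 40%). ATF6B was lower in BRD8 (-0.48), TIP60 (-0.46), RUVBL1 (-0.31) and RUVBL2 (-0.40) libraries.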

How the data were processed

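The deposited table holds FPKM values made by the authors for 19102 genes in 48 libraries. Per the submitters' processing notes, the tools were TopHat2, Cufflinks and Cuffdiff and the build was hg19, with no version or role given. Depth was estimated from the spacing of low values, since the table has no counts. Its 5 sections were treated as normalised separately. Each column carried the name of its library, and 0 columns were of other samples.

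Genes that reached 1 FPKM in 2 or more libraries of a section entered the fit, on log2(FPKM + 1), with limma 3.58.1 in R 4.3.3, with 1 level per target, a trended empirical Bayes spread shared over the section and two-sided tests. P-values were adjusted by Benjamini-Hochberg over all tested genes, and a gene was called at 0.05. The 46 columns fitted leave out the pair that was identical. Targets with 1 library take their spread from the section. Differences between effects were tested in 1 fit over all sections, on genes that passed in each, with the spread shared over all sections. The script was tested on simulated data with known changes.

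The 35 genes and the lists (PERK and CHOP branch, other regulators, other folding factors, translocon and transferase, other ERAD genes, COPII transport) were chosen with earlier results of these data known. Named first were the 6 called genes with the largest change in BRD8, H2AZ, TIP60, RUVBL1, RUVBL2 and p53, the largest rise and fall elsewhere, and HSPA5, XBP1 and the sensors throughout. Up to 4 called genes per list, by smallest adjusted p, could be named. Alternatives were a pseudocount of 0.1, no filter, rescaled libraries, a fit on the 2 groups alone, a replicate block and each library left out.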

Additional observations from a re-analysis of the deposited data

Results flagged for a closer look

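SDF2L1 measured 33.9 FPKM in H2AZ guide 1 replicate 1, far from the other 3 H2AZ libraries, which measured 19.6 to 21.4 FPKM. Of 65 groups of 4 libraries checked, this was the 1 with such a gap. Chance alone gives such a gap in about 1 of 20 groups, so 1 in 65 is not more than chance gives. SDF2L1 was not called in H2AZ libraries.

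Effects of separate targets, each against its own controls, differed for the following genes in a joint limma fit (differences on the log2 scale, adjusted p under 0.05). For RUVBL2 minus H2AZ they were SYVN1 (0.80), OS9 (0.60), ATF6 (0.54), DERL1 (0.52) and EDEM1 (-0.55). For RUVBL2 minus TIP60 they were XBP1 (1.67), SYVN1 (1.18), SEC61A1 (0.89), DERL2 (0.88), VIMP (0.83), HERPUD1 (0.78), HYOU1 (0.57), DNAJB9 (0.56), EDEM2 (0.55), HSPA5 (-0.44) and CALR (-0.75). For p53 minus BRD8 the positive differences were CRELD2 (1.11), EDEM1 (1.03), EDEM2 (1.03), VIMP (0.98), MANF (0.96), PDIA4 (0.95), DNAJB9 (0.70), EIF2AK3 (0.65) and SYVN1 (0.50). DNAJB9 passed the filter in the BRD8 section only through the BRD8 libraries, so its value there is given with no test. The negative differences were DNAJB11 (-0.48), CANX (-0.56), SEL1L (-0.64), DERL1 (-0.73), DNAJC3 (-0.74), HSPA5 (-0.81), SEC61G (-0.85), ATF6 (-0.87), PDIA6 (-0.94), DNAJC10 (-1.21) and HERPUD1 (-1.5).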

How the results depend on the processing

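Of 333 recomputed values of the single genes named first, 290 kept their direction and their side of the threshold, 43 lost the call and 0 turned. Counts of called genes moved more. Fitted on the 2 groups alone, the count was 6 for TIP60 (12 with the shared spread), 24 for RUVBL1 (10), 26 for RUVBL2 (11), 4 for EP400 (0) and 2 for GAS41 (0). On rescaled libraries it was 7 for TIP60, 2 for the H2AZ against BRD8 difference (0 as deposited) and 8 for RUVBL2 against H2AZ (5). Without a filter on low values the H2AZ count was 2 (5 with it). Leaving out each library in turn gave 15 to 20 for BRD8 (19 with all), 1 to 12 for H2AZ, 5 to 11 for TIP60, 0 to 9 for TRRAP (5), 2 to 5 for RUVBL1, 7 to 8 for RUVBL2, 0 to 1 for ACTL6A, 0 to 5 for MORF4L2 (0) and 29 for p53 (30). The cause of these moves was not tested. Fits with a library left out also had fewer libraries.

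With the replicate number as a block, the counts were 19 for BRD8, 4 for H2AZ, where PDIA6 lost its call (adjusted p = 0.0518, limma), and 29 for p53. The replicate numbers did not pair the libraries: correlations of same-numbered deviations ran from -0.28 to 0.31. Where a target had 1 library per guide there was no replicate number to block on. Shallow coverage in the H2AZ section and 2 libraries a group limit small changes.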
